A study of Mus musculus with 43 samples.

Results

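The chemokine system was followed here as a set of 57 genes, made up of 40 ligands and 17 receptors, out of 26264 genes counted in each of 6 tables of polyA RNA sequencing. The set holds every mouse gene symbol of the Ccl, Cxcl, Cx3cl and Xcl ligand families and of the Ccr, Cxcr and Cx3cr receptor families, chosen by name alone. RUNX1 and RUNX2 are transcription factors, and the series asked what their gain or loss does in brown and white fat cells. It held 43 libraries in 15 groups, with 3 libraries a group except in the 2 groups of the IDR experiment, which had 2 each.

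The culture groups were made from a line labelled BAT, brown preadipocytes that were differentiated to mature brown adipocytes in every case. They comprised cultures overexpressing Runx1, cultures overexpressing Runx2 and their OEV controls of WT genotype. A further table held Runx1 knockout, Runx2 knockout and double knockout cultures with 1 shared WT control group, and another held cultures with the IDR of Runx2 deleted against cultures with full-length Runx2. The inguinal white fat (iWAT) groups were Adipoq-cre:Runx1 KO against Runx1 flox, Adipoq-cre:Runx2 KO against Runx2 flox, and, in samples labelled HFD, Runx1 knockout against WT. Adipoq-cre acts in adipocytes, so the other cells of the fat pad keep the floxed gene. No driver was named for the HFD knockout, and age, sex and the number of animals or cultures behind the libraries were not given. The p-values below therefore measure the spread between libraries, which may be partly technical.

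Chemokines are small secreted proteins that direct the migration of leukocytes and other cells through G protein-coupled receptors. Inflammatory chemokines are switched on by NF-kappaB and interferon signalling, while homeostatic ones such as CXCL12 and CXCL13 place cells within bone marrow and lymphoid tissue. In adipose tissue, CCL2 is best known for drawing monocytes through CCR2 into inflamed fat, and inguinal pads also contain a lymph node whose B and T cells carry CXCR5 and CCR7.

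Library totals ran between 28.1 and 52.2 M counts. After a filter on low counts, 20 of the 57 members were tested in the overexpression cultures, 14 in the knockout cultures, 14 in the IDR cultures, and 43, 42 and 42 in the Runx1, Runx2 and HFD iWAT tables. In all, 46 members were tested in at least 1 table and 14 in every table. The 11 members tested in none included the lymph node chemokines Ccl19 and Ccl21a, which had no counts in any library. They also included Ccl21b, Ccl21c and Ccl21d, near-identical copies of Ccl21a whose reads the counting could have split or dropped. In the cultures the overexpressed gene was found where labelled, with Runx1 at 66.9 to 85.9 CPM (counts scaled to library size) in Runx1-overexpressing and 4.26 to 6.70 CPM in OEV cultures, and Runx2 at 281 to 332 CPM in Runx2-overexpressing and 7.74 to 9.30 CPM in OEV cultures. Each also carried more of the other gene than OEV cultures did: Runx1 stood at 28.9 to 32.6 CPM in Runx2-overexpressing cultures (log2 2.44, SE 0.17, edgeR adjusted p = 2.28e-07), and Runx2 at 15.3 to 18.0 CPM in Runx1-overexpressing cultures (log2 0.94, SE 0.11, edgeR adjusted p = 3.13e-05). Neither knocked-out gene was called lower at the RNA level in any knockout comparison (edgeR adjusted p of 0.0779 or more), so the knockout groups are named below as labelled.

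**Figure D1:**
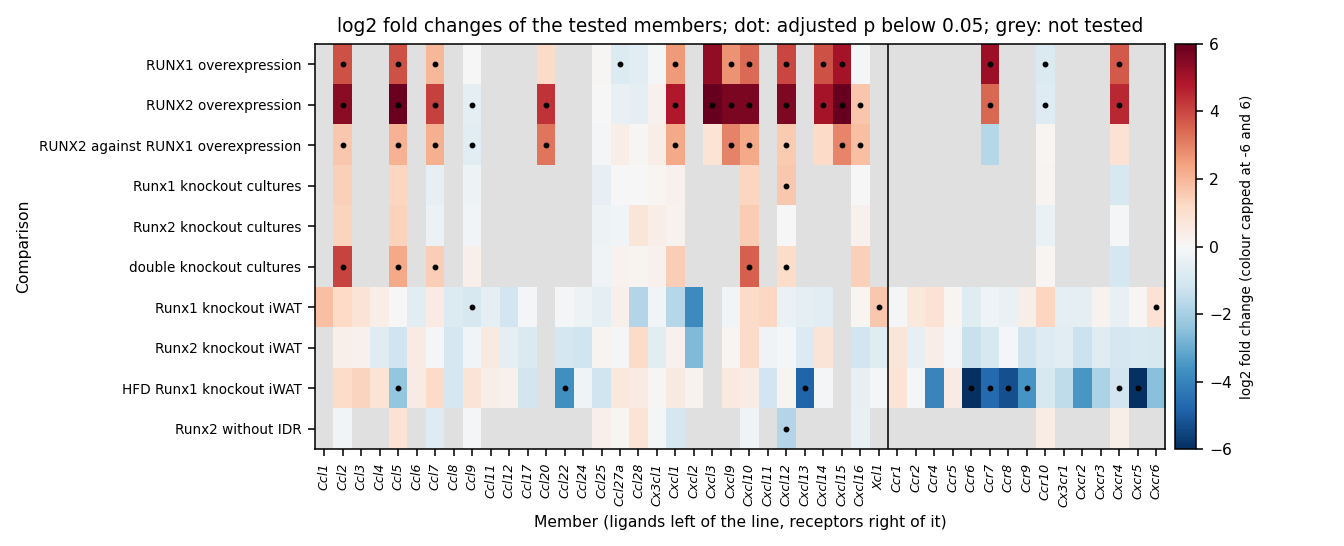
Fitted log2 fold changes (colour, capped at -6 and 6) of the 46 members tested in at least 1 table, for each of the 10 comparisons in rows. Black dots mark adjusted p below 0.05 and grey cells were not tested; most dots lie in the 3 overexpression rows, and the 9 dots of the HFD row are all blue (lower in the knockout). Fold changes of Cxcl3 and Cxcl15, with 0 counts in OEV libraries, depend on the prior count of the fit.

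Overexpression of Runx1 raised a set of inflammatory and homeostatic chemokine ligands in brown adipocyte cultures. Of 20 members tested, 11 rose and 2 fell, while of all tested genes 28.2% rose and 25.8% fell, 54% in all. Cxcl3, Cxcl15, Ccl20, Ccr7 and Cxcl14 had 0 to 5 counts in all OEV libraries together, so they were tested only through the overexpressing libraries. Ccl5, Cxcl9 and Cxcr4 lay below the count filter in some OEV libraries, so they too needed the overexpressing libraries to be tested. The counts of members are therefore a description. The ligands that rose were the monocyte attractants Ccl2 and Ccl7, the T cell attractants Ccl5, Cxcl9 and Cxcl10, the neutrophil attractant Cxcl1, and Cxcl12, Cxcl14 and Cxcl15. Both receptors that rose, Cxcr4 (the CXCL12 receptor) and Ccr7 (the CCL19 and CCL21 receptor), stood at low levels.

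Cxcl12, which retains CXCR4-bearing cells in bone marrow and stroma, had 455, 485 and 459 CPM in Runx1-overexpressing cultures, against 23.1, 16.2 and 46.4 CPM in OEV cultures. The control libraries differed among themselves by more than did the overexpressing ones, but the groups stood far apart. The log2 fold change was 4.02 (SE 0.34, edgeR quasi-likelihood adjusted p = 1.08e-05).

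Ccl2 had 18.4, 19.8 and 12.3 CPM in Runx1-overexpressing cultures, against 0.988, 0.973 and 1.58 CPM in OEV cultures (log2 3.81, SE 0.24, edgeR adjusted p = 2.59e-07). Its chromosomal neighbour and fellow monocyte attractant Ccl7 had 8.95, 8.51 and 6.58 CPM, against 1.78, 1.14 and 3.10 CPM in OEV cultures (log2 1.97, SE 0.27, edgeR adjusted p = 0.000105). For both genes every overexpressing library lay above every control library. Cxcl1, a ligand of the neutrophil receptor CXCR2, had 5.16, 3.9 and 3.69 CPM, against 0.626, 0.336 and 1.15 CPM in OEV cultures (log2 2.55, SE 0.32, edgeR adjusted p = 5.42e-05).

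The interferon-inducible ligand Cxcl10 had 15.3, 16.4 and 12.3 CPM in Runx1-overexpressing cultures, against 0.791, 1.75 and 1.60 CPM in OEV cultures (log2 3.40, SE 0.23, edgeR adjusted p = 5.32e-07). Ccl5 (RANTES) had 7.53, 6.63 and 5.24 CPM, against 0.132, 0.671 and 0.55 CPM in OEV cultures (log2 3.82, SE 0.35, edgeR adjusted p = 4.34e-06). Neither gene's groups overlapped. Cxcl9, which shares the receptor CXCR3 with Cxcl10, stayed below 1 CPM on average and was at log2 2.68 (SE 0.61).

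The 2 receptors that rose were Cxcr4, with 2.25, 2.53 and 2.78 CPM in Runx1-overexpressing cultures, against 0.264, 0.0671 and 0.25 CPM in OEV cultures (log2 3.66, SE 0.40, edgeR adjusted p = 1.84e-05), and Ccr7. Ccr7 had 1.61, 1.77 and 0.909 CPM, against 0, 0 and 0.1 CPM in OEV cultures, where it totalled 4 counts (log2 5.12, SE 0.91, edgeR adjusted p = 0.000658). With OEV library 3 left out the controls hold no Ccr7 count. Without it the fitted log2 value, 8.77, is therefore set by the prior count.

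Ccl27a, a skin-homing ligand, and its receptor gene Ccr10 were the members that fell, by 0.84 and 0.87 on the log2 scale. Ccl27a has near-identical copies and its counts are uncertain, and Ccr10 missed the threshold without OEV library 3 (log2 -0.75, edgeR adjusted p = 0.0527). Cxcl14 had 0.138, 0.253 and 1.87 CPM in Runx1-overexpressing cultures, against 0.0988, 0 and 0.05 CPM in OEV cultures, so that 1 library carried most of its rise. Without that library its log2 fold change was 1.89 (edgeR adjusted p = 0.0661). Cxcl15 rested on 12 counts in Runx1-overexpressing cultures against 0 in OEV cultures, at least 3.32-fold higher taking 3 counts over the control group as the floor, and it missed the threshold with any of the 3 OEV libraries or Runx1-overexpressing library 1 or 2 left out (edgeR adjusted p between 0.0694 and 0.119). Cx3cl1, the membrane-bound ligand of CX3CR1, was not called, at 19.2, 18.7 and 16.5 CPM in Runx1-overexpressing and 19.2, 15.8 and 23.7 CPM in OEV cultures.

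**Figure D2:**
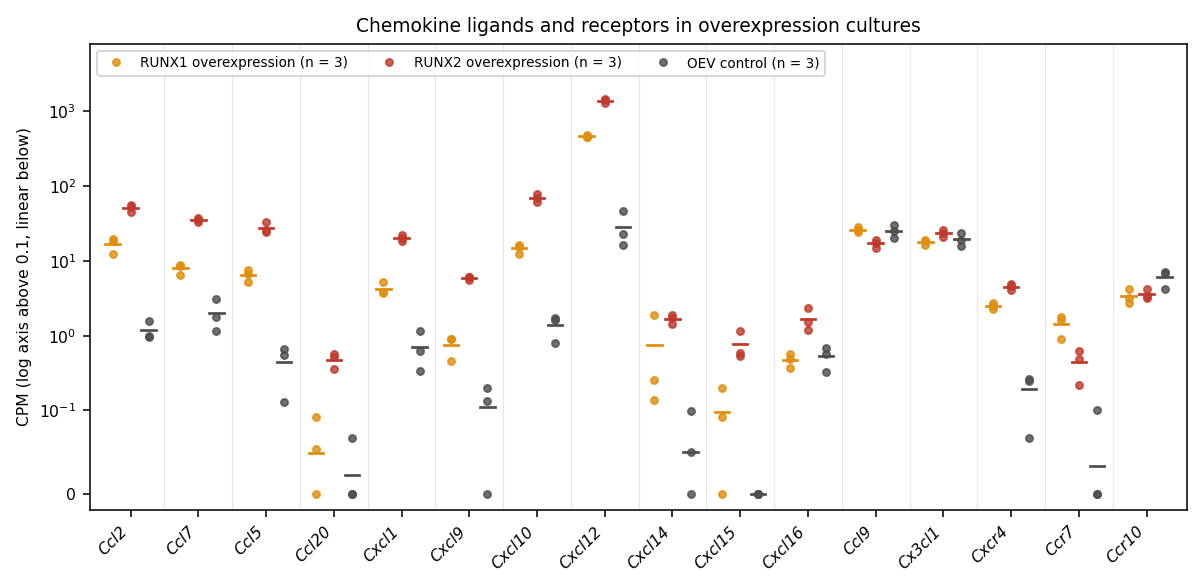
CPM of 16 members in each library (points) with group means (bars) in Runx1-overexpressing, Runx2-overexpressing and OEV control cultures. The axis is logarithmic above 0.1 CPM. Cxcl12 stood at 455 to 485 CPM with Runx1, at 1312 to 1446 CPM with Runx2 and at 16.2 to 46.4 CPM in OEV cultures, while the Cx3cl1 groups overlapped with OEV.

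Overexpression of Runx2 raised 12 ligands and 2 receptors. Of 20 members tested, 14 rose and 2 fell, while of all tested genes 31.3% rose and 29.6% fell, 60.9% in all. This comparison shares its OEV controls with the one before, so the 2 sets of fold changes are not independent. The same members needed the overexpressing libraries to pass the filter, so these counts are a description as well.

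Cxcl12 had 1312, 1412 and 1446 CPM in Runx2-overexpressing cultures, against the same 23.1, 16.2 and 46.4 CPM in OEV cultures (log2 5.60, SE 0.36, edgeR adjusted p = 1.04e-06). It made up 81.0 to 85.2% of all member counts there, uncorrected for gene length, against 20.4 to 36.3% in OEV cultures. Summed over the 57 members, the level was 1619 to 1697 CPM with Runx2, 559 to 608 CPM with Runx1 and 79.7 to 128 CPM in OEV cultures, with no overlap between the groups.

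The inflammatory ligands were also far above their controls. Cxcl10 had 79.2, 69.9 and 61.1 CPM in Runx2-overexpressing cultures, against 0.791, 1.75 and 1.60 CPM in OEV cultures (log2 5.65, SE 0.24, edgeR adjusted p = 8.29e-09). Ccl2 had 56.5, 53.3 and 45 CPM, against 0.988, 0.973 and 1.58 CPM in OEV cultures (log2 5.42, SE 0.24, edgeR adjusted p = 1.02e-08). Both genes also stood above their levels in every Runx1-overexpressing library. Ccl5 had 32.9, 26.3 and 24.3 CPM, against 0.132, 0.671 and 0.55 CPM in OEV cultures (log2 5.92, SE 0.35, edgeR adjusted p = 8.72e-08). Ccl7 had 37.6, 35.3 and 33.2 CPM, against 1.78, 1.14 and 3.10 CPM in OEV cultures (log2 4.11, SE 0.28, edgeR adjusted p = 2.53e-07).

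Cxcl1 had 22.1, 18.6 and 20.6 CPM in Runx2-overexpressing cultures, against 0.626, 0.336 and 1.15 CPM in OEV cultures (log2 4.81, SE 0.34, edgeR adjusted p = 2.82e-07). Cxcl9 had 6.10, 5.59 and 6.08 CPM, against 0, 0.134 and 0.2 CPM in OEV cultures (log2 5.63, SE 0.63, edgeR adjusted p = 1.33e-05). Neither gene came near its control range in any overexpressing library. Cxcr4 had 4.85, 4.13 and 4.64 CPM, against 0.264, 0.0671 and 0.25 CPM in OEV cultures (log2 4.51, SE 0.41, edgeR adjusted p = 2.31e-06).

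Cxcl14, a chemokine of epithelia and fat, had 1.42, 1.91 and 1.70 CPM in Runx2-overexpressing cultures, against 0.0988, 0 and 0.05 CPM in OEV cultures (log2 4.98, SE 1.09, edgeR adjusted p = 0.00197). Cxcl16, the membrane-bound ligand of CXCR6, had 2.34, 1.52 and 1.2 CPM, against 0.692, 0.571 and 0.325 CPM in OEV cultures (log2 1.67, SE 0.46, edgeR adjusted p = 0.00813), and missed the threshold without Runx2-overexpressing library 1 (log2 1.36, edgeR adjusted p = 0.0613). The groups of both genes did not overlap. Ccl20, the CCR6 ligand, was 24.2-fold higher from 61 counts in Runx2-overexpressing against 2 in OEV cultures (exact counting interval 6.41 to 204), and its fitted log2 value was 4.34, or 7.27 without OEV library 2, which held those counts. Cxcl15 and Cxcl3, both attractants of neutrophils, had 0 counts in OEV cultures and were at least 24.8-fold and at least 7.13-fold higher, from 94 and 27 counts.

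Ccr7, which marks cells that home to lymph nodes, had 0.490, 0.619 and 0.222 CPM against 0, 0 and 0.1 CPM in OEV cultures (log2 3.43, SE 0.91, edgeR adjusted p = 0.00682; 7.10 without OEV library 3, where no control count remains). Ccl9, a ligand of CCR1, and Ccr10 fell by 0.57 and 0.76 on the log2 scale. Cxcl3 missed the threshold with any 1 library left out (edgeR adjusted p between 0.0560 and 0.0900), and Ccr10 missed it without OEV library 2 or 3 or Runx2-overexpressing library 1 or 2 (0.0686 to 0.0878). Cx3cl1 was not called at log2 0.27 (SE 0.15), with 26.1, 24.0 and 20.7 CPM in Runx2-overexpressing cultures. It passed only without OEV library 3 (log2 0.44, edgeR adjusted p = 0.0245).

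Set directly against Runx1 overexpression, Runx2 overexpression gave higher chemokine ligand levels. Of 20 members tested, 10 ligands rose and 1 fell, while of all tested genes 18.9% rose and 21% fell, 39.9% in all, and no receptor was called by edgeR (2 of 3 had an unadjusted p under 0.05, as did 48.6% of all tested genes). Cxcl9 differed by log2 2.96 (SE 0.52), Cxcl1 by 2.26 (SE 0.28), Cxcl10 by 2.25 (SE 0.20), Ccl7 by 2.14 (SE 0.25), Ccl5 by 2.10 (SE 0.27), Ccl2 by 1.61 (SE 0.19) and Cxcl12 by 1.58 (SE 0.30), with edgeR adjusted p between 9.39e-06 and 0.00321. In each of these 7 genes the 3 Runx2 libraries lay above the 3 Runx1 libraries. Cxcl16 was at log2 1.81 (SE 0.46) and missed the threshold without Runx2-overexpressing library 1 (log2 1.51, edgeR adjusted p = 0.0586). Ccl20 (log2 3.20) and Cxcl15 (log2 2.91) rested on 6 and 12 counts with Runx1 and passed the filter only through the Runx2-overexpressing libraries. Both missed the threshold without any 1 of the 3 Runx2-overexpressing libraries, Ccl20 also without Runx1-overexpressing library 2 and Cxcl15 without Runx1-overexpressing library 1 (edgeR adjusted p up to 0.0955 and 0.138). Ccl9 fell by 0.61 on the log2 scale. Cx3cl1 was not called (log2 0.38, SE 0.15, edgeR adjusted p = 0.0666), though it was by DESeq2 (adjusted p = 0.0469) and in a fit of the compared groups alone (edgeR adjusted p = 0.0255). Ccr7, at log2 -1.70 (SE 0.71), was not called (edgeR adjusted p = 0.0774).

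Markers of lymphocytes were near 0 in these cultures. The pan-leukocyte gene Ptprc had 0 CPM in all Runx2-overexpressing and OEV libraries and at most 0.214 CPM in a Runx1-overexpressing one, and the summed B cell and T cell lists (6 genes each) stayed below 0.5 CPM. The 8 macrophage markers summed to 5.24 to 14.3 CPM with Runx1, 11.9 to 13.2 CPM with Runx2 and 2.60 to 6.91 CPM in OEV cultures, and of 3 tested 1 rose with Runx1 and 3 with Runx2. The 6 dendritic cell markers summed to 8.26 to 11.7 CPM with Runx1, 9.59 to 12.6 CPM with Runx2 and 16.8 to 20.5 CPM in OEV cultures, and of 2 tested 1 rose and 1 fell in each comparison. The 5 lymphatic endothelial markers summed to 41.7 to 46.1 CPM with Runx1, 40.2 to 42.9 CPM with Runx2 and 1.12 to 3.85 CPM in OEV cultures, and both that were tested rose in each comparison. The 6 stromal progenitor markers summed to 1914 to 2230 CPM with Runx1, 5018 to 5509 CPM with Runx2 and 389 to 838 CPM in OEV cultures. Of 5 tested, 3 rose with Runx1, while 3 rose and 1 fell with Runx2. The 6 brown adipocyte markers summed to 30.6 to 56.5, 13.6 to 17.1 and 293 to 462 CPM, and 5 fell with Runx1 and 6 with Runx2. The 6 neutrophil markers summed to 2.17 to 3.27 CPM with Runx1, 1.63 to 2.24 CPM with Runx2 and 0.425 to 0.772 CPM in OEV cultures. Of 2 tested, 2 rose with Runx1 and 1 with Runx2. The 6 adipocyte markers summed to 6022 to 7434, 3541 to 4233 and 6734 to 7056 CPM, and 2 rose and 2 fell with Runx1 while 5 fell with Runx2. The part of any of these cells in the chemokine result was not tested. OEV libraries 1 and 2 and Runx1-overexpressing library 3 also held cardiac muscle transcripts, at 113, 436 and 1650 CPM summed over 9 genes, while the other 6 held 2.57 to 5.49 CPM. With those 3 left out, the controls are 1 library, OEV library 3, which had the highest control Cxcl12, and the fit assumes that it varies as the other groups do. That fit called 10 members and 7275 genes for Runx1 and 14 members and 8198 genes for Runx2, and the Cxcl12 log2 fold change was 3.34 and 4.90.

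Named lists held interferon, NF-kappaB and cytokine genes, regulators as well as induced genes such as Isg15. For comparison, 28.2% of all tested genes rose and 25.8% fell with Runx1, and 31.3% rose and 29.6% fell with Runx2. Among 15 tested interferon regulatory and STAT genes, 10 rose and 2 fell with Runx1 and 11 rose and 1 fell with Runx2, with medians of log2 0.50 and 1.28. Irf7, a driver of interferon responses, was at log2 2.20 (SE 0.18) with Runx1 and 4.50 (SE 0.20) with Runx2, and the interferon-induced Isg15 at 3.45 (SE 0.21) and 5.55 (SE 0.22). Of 18 tested NF-kappaB genes, 5 were higher and 4 lower for Runx1, near the shares of all tested genes. For Runx2, 14 were higher and 2 lower. Nfkbie, an inhibitor of NF-kappaB, was at log2 2.73 (SE 0.34) and 2.88 (SE 0.34), while Tnip1, another inhibitor, fell by 1.18 and 1.00. Of 13 tested cytokine and cytokine receptor genes, 8 rose and 1 fell with Runx1, and 10 rose and 0 fell with Runx2. Among them, Il6 was at log2 3.59 (SE 0.64) and 4.96 (SE 0.66) and the macrophage growth factor Csf1 at 2.01 (SE 0.17) and 2.60 (SE 0.17). Of 8 tested atypical receptors and related genes, 3 rose and 1 fell with Runx1, and 4 rose and 1 fell with Runx2. The CXCL12-scavenging receptor Ackr3 rose by log2 3.06 (SE 0.59) and 2.82 (SE 0.59), and the chemerin gene Rarres2 fell by 1.57 and 1.94. Of 16 tested chemokine signalling and processing genes, 6 rose and 4 fell with Runx1, and 5 rose and 5 fell with Runx2. Among them, Mmp2, a protease that cleaves CXCL12, rose by log2 2.01 (SE 0.13) and 5.97 (SE 0.15).

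The promoters of 4 ligands that rose in both overexpression comparisons are shown for the letters of RUNX, NF-kappaB and interferon motifs within them. Each run gives the 250 bases before the RefSeq start site, on the coding strand, from build GRCm38.p6, with motif matches in capitals. The motifs searched on both strands were TGTGGT for RUNX, GGGANNTTC for NF-kappaB and GAAANNGAA for the interferon element (ISRE), where N is any base. Cxcl10 lies at chr5:92348890-92349139 on the minus strand, Cxcl9 at chr5:92328080-92328329 on the minus strand, Cxcl1 at chr5:90890995-90891244 on the plus strand and Cxcl12 at chr6:117168285-117168534 on the plus strand.
Cxcl10: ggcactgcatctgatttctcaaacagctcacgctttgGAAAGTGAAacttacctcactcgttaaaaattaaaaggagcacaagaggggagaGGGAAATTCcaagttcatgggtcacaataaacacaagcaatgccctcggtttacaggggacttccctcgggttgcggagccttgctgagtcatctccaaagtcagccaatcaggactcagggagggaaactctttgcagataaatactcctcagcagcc
Cxcl9: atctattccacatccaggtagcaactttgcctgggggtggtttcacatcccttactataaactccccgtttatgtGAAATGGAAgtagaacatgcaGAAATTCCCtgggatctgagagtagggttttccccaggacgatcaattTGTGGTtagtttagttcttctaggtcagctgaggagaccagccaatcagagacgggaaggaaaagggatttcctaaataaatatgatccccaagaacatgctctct
Cxcl1: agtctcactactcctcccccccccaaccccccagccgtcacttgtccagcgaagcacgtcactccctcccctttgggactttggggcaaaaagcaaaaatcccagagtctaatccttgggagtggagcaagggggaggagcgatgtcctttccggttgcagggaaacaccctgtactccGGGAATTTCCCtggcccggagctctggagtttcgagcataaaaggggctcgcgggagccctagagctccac
Cxcl12: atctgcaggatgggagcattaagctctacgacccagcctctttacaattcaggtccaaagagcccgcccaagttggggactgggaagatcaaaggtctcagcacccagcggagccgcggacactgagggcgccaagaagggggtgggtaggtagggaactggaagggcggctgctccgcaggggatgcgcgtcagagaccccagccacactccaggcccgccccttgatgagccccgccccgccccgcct

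The Cxcl10 window held 1 ISRE and 1 NF-kappaB match, the Cxcl9 window 1 match of each motif, the Cxcl1 window 2 NF-kappaB matches that overlap each other on opposite strands, and the Cxcl12 window none. Promoter windows were available for 41 of the 57 members, 48 windows in all, as some genes had several. Ccl2, Ccl5 and Ccl7 had none. In 38 of the 48 windows the next 20 bases lay in a transcript of the gene, and the shares below count all 48. A RUNX match was present in 9 of these 48 (18.8%) and in 14% of 32851 promoter windows of all genes. An NF-kappaB match was present in 8 (16.7%) against 3.23%, and an ISRE match in 8 (16.7%) against 7.13%. A match is a description of letters and was not tested for binding.

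In the cultures labelled Runx1 knockout, Cxcl12 was the member that rose. It had 29.3, 29.7 and 33.1 CPM in Runx1 knockout cultures, against 10.3, 7.58 and 11.7 CPM in WT control cultures, without overlap (log2 1.64, SE 0.17, edgeR adjusted p = 0.00516). The call was 1 of 14 tested members, while of all tested genes 0.406% rose and 0.0295% fell, 0.435% in all, and it held with each library of the 2 groups left out (log2 1.48 to 1.78). The summed stromal progenitor markers stood at 729.6 to 853 CPM in Runx1 knockout and 370.2 to 585 CPM in control cultures, with none of 4 tested called, and their part in the Cxcl12 result was not tested. Ccl2 was not called, with 0.363, 0.678 and 0.963 CPM in Runx1 knockout and 0.359, 0.0602 and 0.331 CPM in control cultures (log2 1.43, SE 0.57, edgeR adjusted p = 0.602). Cxcl10 (log2 1.3, SE 0.54), Ccl7 (-0.51, SE 0.44), Cxcl1 (0.24, SE 0.49) and Cx3cl1 (0.14, SE 0.20) were not called either.

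In the cultures labelled Runx2 knockout no member was called by edgeR or DESeq2, while of all tested genes 0.177% rose and 0.00738% fell by edgeR, 0.184% in all. An unadjusted p under 0.05 was found for 3 members and for 6.43% of all tested genes. Cxcl12 had 11.1, 10.0 and 8.64 CPM in Runx2 knockout cultures, which overlapped the 10.3, 7.58 and 11.7 CPM of control cultures (log2 0.01, SE 0.17). Cxcl10 had 0.767, 1.00 and 1.11 CPM, against 0.646, 0.0602 and 0.301 CPM in control cultures (log2 1.54, SE 0.54, edgeR adjusted p = 0.507). Its groups did not overlap, but it rested on 97 counts against 30. Ccl2 (log2 1.35, SE 0.57), Cx3cl1 (0.39, SE 0.20), Cxcl1 (0.20, SE 0.49) and Ccl7 (-0.34, SE 0.44) were not called.

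In the double knockout cultures 5 of the 14 tested members rose and none fell, all ligands, while of all tested genes 8.27% rose and 7.01% fell, 15.3% in all. Ccl2, Ccl5 and Cxcl10 lay below the count filter in some control libraries, so they were tested only with the help of knockout libraries. The count of members is therefore a description. The 3 knockout comparisons share 1 control group. Double knockout library 1 stood apart over all genes, with a chi-square per degree of freedom of 301 and 391 against libraries 2 and 3, which differed from each other by 15.6. Its adipocyte markers summed to 14989 CPM, with 7415 and 6908 CPM in the other double knockout libraries and 6175 to 6317 CPM in control cultures. Ccl2 had 5.34, 3.42 and 3.57 CPM in double knockout cultures, against 0.359, 0.0602 and 0.331 CPM in control cultures (log2 4.04, SE 0.54, edgeR adjusted p = 0.000556). Cxcl10 had 5.24, 3.02 and 3.62 CPM, against 0.646, 0.0602 and 0.301 CPM in control cultures (log2 3.58, SE 0.52, edgeR adjusted p = 0.000975). The knockout and control libraries of both genes were far apart, and double knockout library 1 was the highest for each. Without that library Ccl2 was at log2 3.81 (SE 0.54) and Cxcl10 at 3.34 (SE 0.51), and both stayed called by edgeR.

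Cxcl12 had 18.7, 21.5 and 23.6 CPM in double knockout cultures, above the 10.3, 7.58 and 11.7 CPM of control cultures (log2 1.11, SE 0.17, edgeR adjusted p = 0.0012). Ccl5 had 1.75, 1.62 and 1.28 CPM, against 0.215, 0.482 and 0.241 CPM in control cultures (log2 2.28, SE 0.52, edgeR adjusted p = 0.0124), and missed the threshold without control library 3 (log2 2.12, edgeR adjusted p = 0.0553). Without control library 3 the count of called members was 3. Across the fits with 1 library left out, 1050 to 3584 of all tested genes were called, against 2070 with all libraries in. Ccl7 had 6.49, 2.37 and 1.98 CPM, against 1.58, 0.873 and 1.39 CPM in control cultures, so double knockout library 1 stood apart (log2 1.49, SE 0.42, edgeR adjusted p = 0.0346). Ccl7 missed the threshold without that library (log2 0.78, edgeR adjusted p = 0.118) and without control library 1, 2 or 3 (log2 1.66, 1.27 and 1.55, edgeR adjusted p = 0.0556, 0.129 and 0.0842), and in a fit of the compared groups alone (edgeR adjusted p = 0.176).

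Cxcl1 was just outside the threshold in double knockout cultures, with 0.838, 0.808 and 0.948 CPM against 0.359, 0.241 and 0.331 CPM in control cultures (log2 1.47, SE 0.47, edgeR adjusted p = 0.052; DESeq2 adjusted p = 0.037). Cx3cl1 was not called (log2 0.27, SE 0.20), but was without double knockout library 1 (log2 0.48, edgeR adjusted p = 0.0263). Among 15 tested interferon and STAT genes, 7 rose and 2 fell in the double knockout, against 8.27% and 7.01% of all tested genes. Irf7 was at log2 1.59 (SE 0.17) and Isg15 at 2.76 (SE 0.34). Among 17 tested NF-kappaB genes, Vcam1, an adhesion molecule, rose (log2 1.28, SE 0.24) and Tnip1 fell by 0.91. Of 14 tested chemokine signalling and processing genes, 2 rose and 1 fell, and Mmp2 was at log2 1.71 (SE 0.22). The 8 macrophage markers summed to 1.33 to 2.82 CPM in double knockout and 1.29 to 2.53 CPM in control cultures, and the 1 of them that was tested was not called. The summed stromal progenitor markers stood at 615 to 1243 CPM in double knockout and 370.2 to 585 CPM in control cultures, and 1 of 4 tested rose. The part of these cells in the result was not tested.

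**Figure D3:**
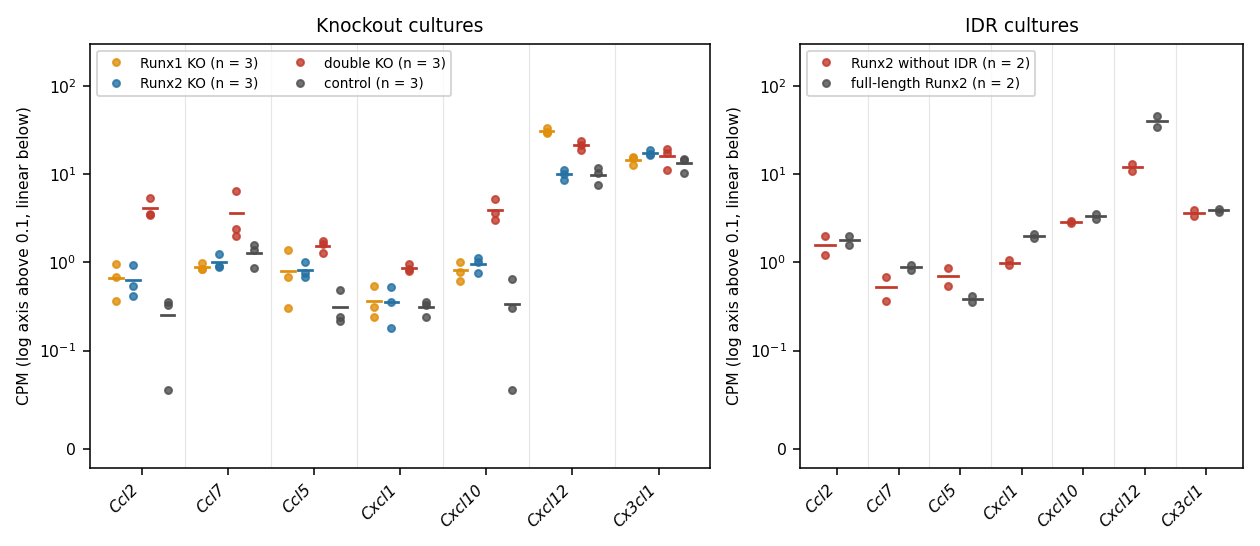
CPM of 7 ligands in each library (points) with group means (bars). Left, Runx1 knockout, Runx2 knockout, double knockout and control cultures; right, cultures with Runx2 lacking the IDR and with full-length Runx2. The axis is logarithmic above 0.1 CPM; Cxcl12 stood at 29.3 to 33.1 CPM in Runx1 knockout against 7.58 to 11.7 CPM in control cultures, and at 10.9 to 12.9 CPM without the IDR against 34.6 to 45.7 CPM with full-length Runx2.

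Deletion of the IDR of Runx2 lowered Cxcl12 alone among the 14 tested members, while of all tested genes 1.51% rose and 2.4% fell, 3.91% in all. Cxcl12 had 12.9 and 10.9 CPM in cultures without the IDR, against 34.6 and 45.7 CPM with full-length Runx2 (log2 -1.75, SE 0.13, edgeR adjusted p = 1.71e-11). The 4 libraries separated without overlap, and the call held with each of them left out. The authors' deposited table lists Cxcl12 at log2 -1.75, as the only member among its 341 genes. Runx2 RNA itself stood at 115 to 143 CPM without the IDR and 293 to 294 CPM with full-length Runx2 (log2 -1.19, SE 0.08). Runx1 RNA fell as well, to 3.39 to 4.31 CPM without the IDR, against 8.04 to 8.38 CPM with full-length Runx2 (log2 -1.09, SE 0.20, edgeR adjusted p = 0.000328). Stromal progenitor markers summed to 85.4 to 92.8 CPM without the IDR and 97.2 to 111 CPM with full-length Runx2, with 1 of 3 tested lower. The part of these in the Cxcl12 difference was not tested.

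Cxcl1 was not called in this comparison, with 0.923 and 1.05 CPM without the IDR and 2.12 and 1.88 CPM with full-length Runx2 (log2 -1.01, SE 0.39, edgeR adjusted p = 0.16). Cxcl10 stood at 2.95 and 2.77 CPM against 3.13 and 3.52 CPM with full-length Runx2 (log2 -0.22, SE 0.26). Ccl2 (log2 -0.18, SE 0.37), Ccl7 (-0.76, SE 0.54) and Cx3cl1 (-0.09, SE 0.24) were not called. Of the NF-kappaB, interferon and cytokine genes tested, Vcam1, Stat3, Ifngr1 and Osmr fell, and none rose, while of all tested genes 2.4% fell and 1.51% rose.

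In inguinal fat labelled HFD, Runx1 knockout samples had much less RNA of lymphoid chemokines and receptors. Of 42 tested members, 9 fell and none rose, while of all tested genes 2.07% fell and 0.0465% rose, 2.11% in all. Cxcr5, Ccr6, Ccr8 and Ccr9 were low in knockout libraries and passed the count filter only through the WT libraries. The counts of members are therefore a description. The members that fell were the B cell attractant Cxcl13 and its receptor Cxcr5, the lymph node homing receptor Ccr7, the dendritic cell ligand Ccl22, the T cell attractant Ccl5, and the receptors Ccr6, Ccr8, Ccr9 and Cxcr4. As these are bulk tissues, fewer cells of a type and less RNA per cell cannot be told apart.

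Cxcr5, which guides B cells into follicles, had 0.130, 0.405 and 0.207 CPM in HFD Runx1 knockout fat, against 9.05, 27.8 and 23.0 CPM in HFD WT fat (log2 -6.35, SE 0.55, edgeR adjusted p = 0.000122). Its ligand gene Cxcl13 had 1.04, 1.27 and 2.60 CPM, against 27.7, 59.6 and 47.5 CPM in HFD WT fat (log2 -4.79, SE 0.42, edgeR adjusted p = 0.000124). Ccr7 had 2.02, 1.16 and 0.590 CPM, against 14.7, 54.6 and 26.3 CPM in HFD WT fat (log2 -4.64, SE 0.55, edgeR adjusted p = 0.00126). For all 3 genes the knockout libraries lay far below the WT libraries, and WT library 1 was the lowest of its group.

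Ccl22 had 2.30, 1.96 and 1.42 CPM in HFD Runx1 knockout fat, against 10.9, 39.0 and 23.3 CPM in HFD WT fat (log2 -3.68, SE 0.44, edgeR adjusted p = 0.00126). Ccr6, a receptor of B cells and some T cells, had 2 counts in all in the 3 knockout libraries and 629 counts in the 3 WT libraries, with 1.38, 9.14 and 6.61 CPM in WT. The ratio was 329-fold lower in the knockout, with an exact counting interval of 90.7 to 2723, which covers counting error only. Both genes separated the groups completely.

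Cxcr4 had 16.1, 18.8 and 18.0 CPM in HFD Runx1 knockout fat, against 40.2, 40.0 and 38.9 CPM in HFD WT fat, with little spread in either group (log2 -1.17, SE 0.20, edgeR adjusted p = 0.00833). Ccl5 had 9.52, 3.67 and 11.0 CPM, against 28.7, 62.3 and 30.8 CPM in HFD WT fat (log2 -2.33, SE 0.42, edgeR adjusted p = 0.0135). Ccr9, a gut-homing receptor, had 0.217, 0.0578 and 0.354 CPM, against 1.35, 4.14 and 1.91 CPM in HFD WT fat (log2 -3.54, SE 0.69, edgeR adjusted p = 0.0186). The groups of these genes did not overlap either. Ccr8, found on regulatory T cells, had 2 counts in the knockout and 85 in WT (44.5-fold lower, exact counting interval 11.9 to 373).

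Without HFD Runx1 knockout library 1, 5 members were called, and Ccl5, Cxcr4, Ccr8 and Ccr9 missed the threshold (edgeR adjusted p = 0.0824, 0.0608, 0.0954 and 0.141). Across the fits with 1 library left out, 120 to 394 of all tested genes were called, against 318 with all libraries in. Ccr8 missed it with any library but WT library 3 left out (edgeR adjusted p between 0.0569 and 0.0983). Ccr9 also missed it without WT library 2 or 3 or knockout library 2 (0.107, 0.0501 and 0.0529). The authors' deposited table of 403 genes lists 12 members, the 9 above and the T cell chemokine receptors Cxcr3, Cxcr6 and Ccr4. Those 3 receptors here had edgeR adjusted p of 0.0705, 0.0563 and 0.0563.

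The monocyte attractants were not called by edgeR in the HFD samples. Ccl8 had 5.79, 6.73 and 5.96 CPM in HFD Runx1 knockout fat, against 15.6, 9.95 and 12.2 CPM in HFD WT fat, without overlap (log2 -1.03, SE 0.27, edgeR adjusted p = 0.0955; DESeq2 adjusted p = 0.0159). It was chosen after its values were seen. Ccl2 had 5.66, 10.4 and 8.33 CPM in HFD Runx1 knockout fat, against 5.47, 2.15 and 3.69 CPM in HFD WT fat (log2 1.11, SE 0.39, edgeR adjusted p = 0.303). Ccl7 had 11.5, 6.59 and 12.8 CPM, against 8.57, 1.87 and 3.45 CPM in HFD WT fat (log2 1.15, SE 0.49, edgeR adjusted p = 0.522), and passed the threshold only without WT library 1 (log2 1.95, edgeR adjusted p = 0.0468). Neither Ccl2 nor Ccl7 was called with all libraries in. Cxcl12 (log2 0.19, SE 0.25), Cxcl10 (0.46, SE 0.42), Cxcl1 (0.54, SE 0.43), Cx3cl1 (0.06, SE 0.27), Ccr2 (-0.14, SE 0.26) and Cx3cr1 (-1.54, SE 0.66) were not called.

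Lymphocyte markers moved with the lymphoid members in the HFD samples. All 6 B cell markers fell, and their sum stood at 2.32 to 3.75 CPM in HFD Runx1 knockout and 174 to 396 CPM in HFD WT fat. Of 6 T cell markers 5 fell, with sums of 8.47 to 22.7 CPM in knockout and 80.4 to 205 CPM in WT, and the pan-leukocyte gene Ptprc fell to 46.9 to 61.2 CPM in knockout, against 115 to 241 CPM in WT. None of 8 macrophage markers and none of 6 adipocyte markers was called, while 1 of 6 dendritic cell and 1 of 6 stromal progenitor markers fell. The B cell markers separate the genotypes completely, so the presence of lymphoid tissue in a sample and the genotype cannot be told apart.

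**Figure D4:**
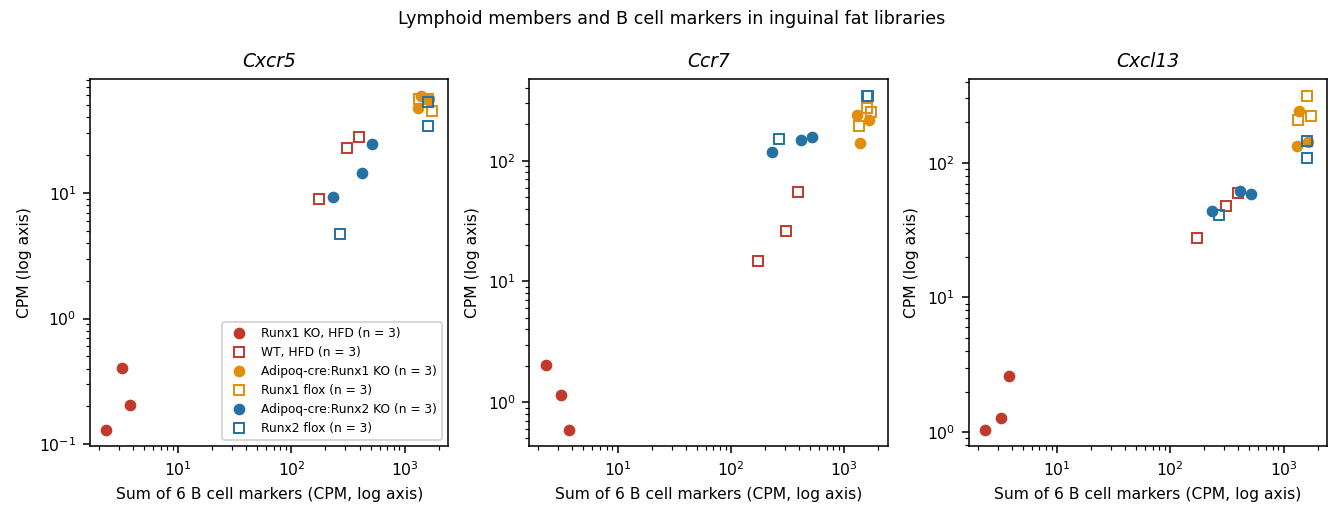
CPM of Cxcr5, Ccr7 and Cxcl13 (vertical, log axis) against the sum of 6 B cell markers (horizontal, CPM, log axis) in each of the 18 inguinal fat libraries, coloured by table; filled circles are knockout and open squares control libraries. The 3 HFD Runx1 knockout libraries sit alone at B cell sums of 2.32 to 3.75 CPM, and tables were scaled separately.

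**Figure D5:**
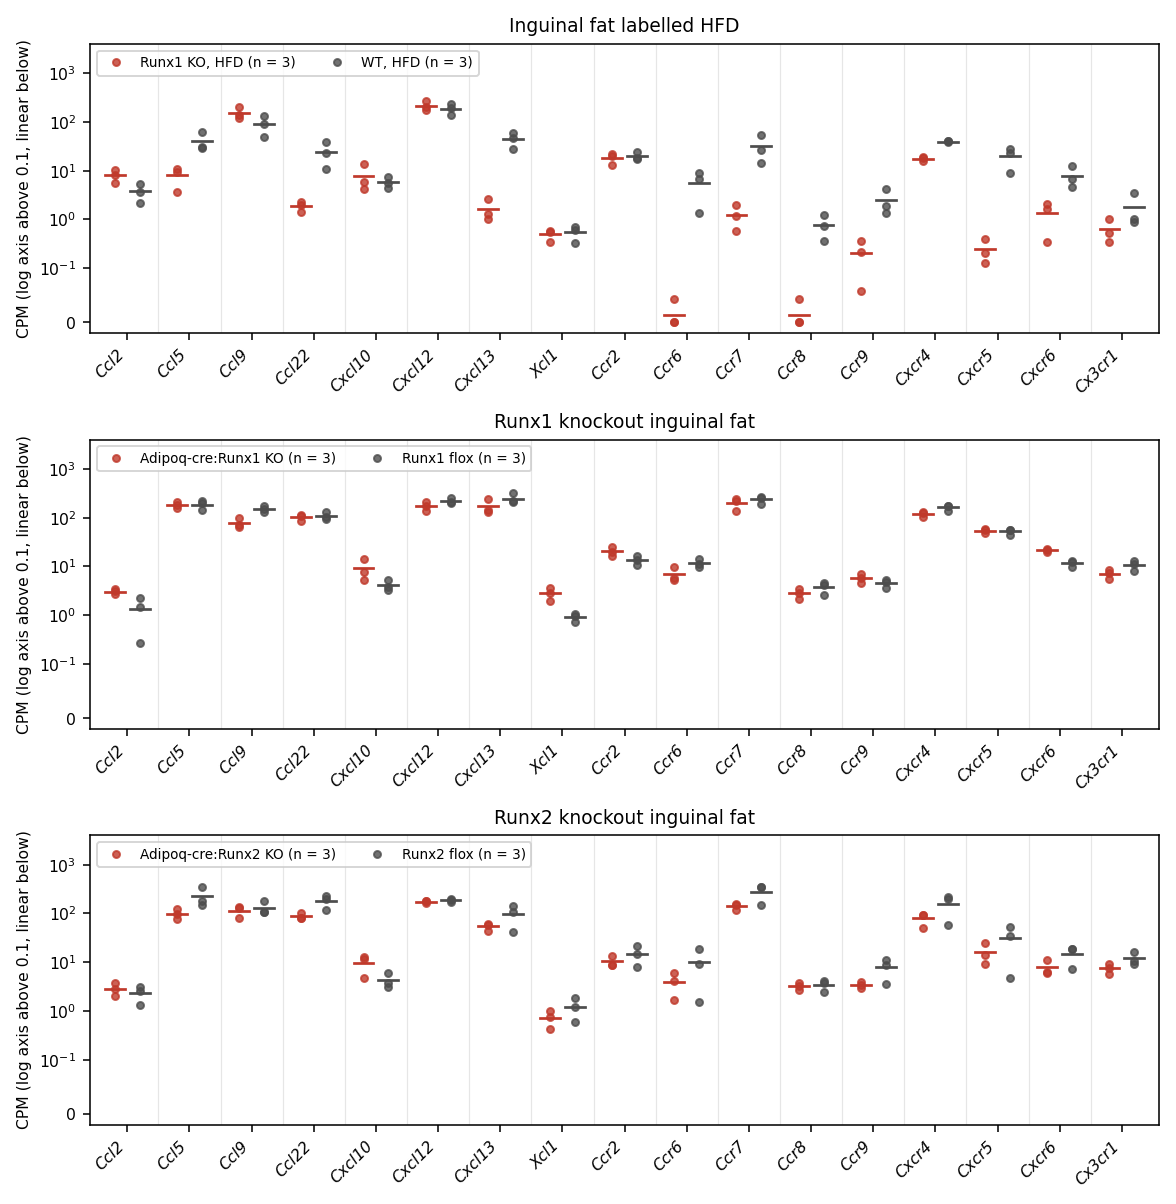
CPM of 17 members in each inguinal fat library (points) with group means (bars), in the HFD, Runx1 and Runx2 tables from top to bottom, with the knockout left of its control. The axis is logarithmic above 0.1 CPM. In the HFD samples Cxcr5 stood at 0.130 to 0.405 CPM in the knockout against 9.05 to 27.8 CPM in WT.

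In Adipoq-cre:Runx1 KO inguinal fat without the HFD label, 2 of 43 tested members rose and 1 fell, while of all tested genes 4.45% rose and 3.03% fell, 7.48% in all. Ccl9, a ligand of CCR1 on myeloid cells, had 71.0, 64.9 and 96.9 CPM in knockout fat, against 173, 148 and 130 CPM in flox fat (log2 -0.95, SE 0.17, edgeR adjusted p = 0.0131). Cxcr6, a chemokine receptor of T cells, had 21.7, 22.7 and 19.9 CPM, against 9.83, 12.8 and 12.3 CPM in flox fat (log2 0.88, SE 0.17, edgeR adjusted p = 0.0176). Xcl1, a lymphocyte-made ligand that attracts cross-presenting dendritic cells, had 2.84, 3.58 and 1.98 CPM, against 0.724, 1.07 and 0.963 CPM in flox fat (log2 1.61, SE 0.40, edgeR adjusted p = 0.0399).

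The groups of these 3 genes did not overlap, but the calls were thin. Without knockout library 1 or knockout library 2 none of the 3 was called (edgeR adjusted p of 0.0556 and 0.0886 for Ccl9), and without knockout library 3 only Ccl9 was. Without flox library 2 there were 5 calls, and Xcl1 missed the threshold in every other fit with 1 library left out (edgeR adjusted p between 0.0730 and 0.207). Across the fits with 1 library left out, 99 to 1381 of all tested genes were called, against 1189 with all libraries in. Flox library 2 and knockout libraries 2 and 3 held skeletal muscle transcripts, at 7583, 17437 and 8103 CPM summed over 9 genes, and the remaining knockout library held 234 CPM and flox libraries 16.1 and 74.3 CPM. With the muscle-bearing libraries out, 1 knockout library stands against 2 flox libraries, and the fit assumes that it varies as the flox libraries do. Its log2 fold changes were -1.09 for Ccl9, 0.97 for Cxcr6, 1.75 for Xcl1 and 1.65 for Cxcl10. Calls from that fit rest on the 1 knockout library, so only its fold changes are given here.

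The lymph node genes did not separate the genotypes in these samples. Cxcl13 had 243, 143 and 133 CPM in Adipoq-cre:Runx1 KO fat, against 315, 207 and 221 CPM in flox fat (log2 -0.52, SE 0.25). Cxcr5 had 59.8, 56.1 and 47.6 CPM, against 55.8, 56.5 and 45.1 CPM in flox fat (log2 0.05, SE 0.14). Ccr7 had 140, 218 and 241 CPM, against 272, 195 and 254 CPM in flox fat (log2 -0.27, SE 0.21). A joint edgeR fit of this table with the HFD table, added after seeing the data, called the difference between the 2 knockout effects for 12 of 44 tested members, against 4.4% of all genes tested. The diet label and the experiment differ together there and cannot be told apart. In Adipoq-cre:Runx1 KO fat the summed B cell markers overlapped too, at 1312 to 1649 CPM in knockout and 1342 to 1746 CPM in flox fat. Other marker sums did separate the genotypes. Endothelial markers stood at 496 to 733 CPM in knockout and 786 to 1042 CPM in flox fat (1 of 5 fell), lymphatic endothelial markers at 42.3 to 109.7 and 124 to 157 CPM (none of 5 called), and brown adipocyte markers at 217 to 335 and 56.2 to 100.1 CPM (3 of 6 rose). Their part in the chemokine results was not tested.

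Ccl2, Ccl7, Cxcl1, Cxcl10, Cxcl12 and Cx3cl1 were not called in this fat by edgeR with all libraries in. Ccl2 had 3.41, 2.67 and 3.09 CPM in Adipoq-cre:Runx1 KO fat, against 0.267, 1.5 and 2.29 CPM in flox fat (log2 1.18, SE 0.61, edgeR adjusted p = 0.263). Cxcl10 was at log2 1.15 (SE 0.37, edgeR adjusted p = 0.0834) and Cxcl1 at -1.72 (SE 0.54, edgeR adjusted p = 0.0772), and both were called by DESeq2, which called 6 members and 11.3% of all genes. Without flox library 2, Cxcl1 was called by edgeR as well (log2 -2.07, adjusted p = 0.0363). Cxcl12 was at 207, 135 and 172 CPM, against 202, 214 and 256 CPM in flox fat (log2 -0.39, SE 0.17). Ccl7 (log2 0.51, SE 0.34), Cx3cl1 (-0.15, SE 0.24), Ccr2 (0.61, SE 0.22) and Cx3cr1 (-0.57, SE 0.25) were not called. Of 13 tested atypical receptors and related genes, 3 fell, against 3.03% of all tested genes. They were the chemokine-binding Ackr1, the CXCL12 scavenger Ackr3 and the platelet factor Pf4, lower by 0.90, 1.21 and 0.87 on the log2 scale.

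In Adipoq-cre:Runx2 KO inguinal fat no member and no other gene was called by edgeR, so the share of all tested genes called was 0%. An unadjusted p under 0.05 was found for 12 of 42 tested members and for 20.6% of all tested genes. DESeq2 called 5 members, all lower (Ccl5, Ccl17, Ccl22, Cxcl2 and Cxcl16), and 4.81% of all genes. The median log2 fold change of the tested members was -0.60, against -0.041 over all tested genes. Ccl22 had 101, 82.3 and 82.2 CPM in knockout fat, against 229, 198 and 120 CPM in flox fat (log2 -1.04, SE 0.26, edgeR adjusted p = 0.218). Cxcl16 had 28.1, 28.7 and 31.9 CPM, against 92.7, 63.5 and 39.4 CPM in flox fat (log2 -1.14, SE 0.29, edgeR adjusted p = 0.218). These groups did not overlap, and flox library 3 lay closest to the knockout libraries in both. Both genes were chosen for naming after their values were seen.

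Flox library 3 stood apart from flox libraries 1 and 2 over all genes, with a chi-square per degree of freedom of 562 and 456, against 92.0 between those libraries. Flox library 3 held 269 CPM of summed B cell markers, against 1613 and 1598 CPM in flox libraries 1 and 2 and 232 to 516 CPM in Adipoq-cre:Runx2 KO fat. It also held 8107 CPM of skeletal muscle transcripts. Its adipocyte markers summed to 29999 CPM, within the 29813 to 37998 CPM of knockout fat, while flox libraries 1 and 2 held 11553 and 14139 CPM. T cell markers (250.3 to 331 CPM in knockout and 386 to 930.2 CPM in flox fat) and macrophage markers (861 to 1045 CPM in knockout and 1081 to 1770.4 CPM in flox fat) separated the groups with all libraries in, and none was called. Their part in the result was not tested. Without flox library 3, 21 members were called, 3 higher and 18 lower, against 40% of all tested genes. That fit keeps flox libraries 1 and 2 alone, and which flox libraries are atypical was not tested. Ccr7 was then at log2 -1.27 (edgeR adjusted p = 0.000618), Cxcl13 at -1.20 (0.00133), Cxcr5 at -1.44 (0.0136), Cx3cl1 at -0.82 (0.0103), Ccr2 at -0.79 (0.0338) and Cx3cr1 at -0.84 (0.0284). The 3 that were higher were Ccl6 (log2 1.23), Ccl11 (1.17) and Cxcl14 (1.04). With all libraries in, Cxcr5 had 14.3, 24.6 and 9.30 CPM in knockout fat, against 34.5, 53.0 and 4.68 CPM in flox fat, so that the groups overlapped through that 1 library.

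The other named genes were not called in Adipoq-cre:Runx2 KO fat with all libraries in. Ccl2 was at log2 0.32 (SE 0.41), Ccl7 at -0.06 (SE 0.45), Cxcl1 at 0.25 (SE 0.76), Cxcl10 at 1.15 (SE 0.43) and Cxcl12 at -0.11 (SE 0.17), with edgeR adjusted p between 0.224 and 0.947. Cxcl12 had 183, 160.3 and 176 CPM in knockout fat, against 200.4, 186 and 174 CPM in flox fat, and these groups overlapped.

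Cxcl12 was the member called in the largest number of comparisons, 6 of 10, and its level differed widely between the kinds of sample. The 18 inguinal fat libraries ran between 135 and 263 CPM and the knockout, OEV and IDR cultures between 7.58 and 46.4 CPM. With Runx1 overexpression, cultures stood at 455 to 485 CPM, and with Runx2 overexpression at 1312 to 1446 CPM, above the fat samples. Full-length Runx2 cultures of the IDR experiment had 293 to 294 CPM of Runx2 RNA, within the 281 to 332 CPM of Runx2-overexpressing cultures. Their Cxcl12 was nevertheless at 34.6 to 45.7 CPM, with Ccl2 at 1.59 and 1.99 CPM and Cxcl10 at 3.13 and 3.52 CPM. This difference between the experiments was not tested. The tables were scaled separately, so levels across tables are a description. Of the other members, Ccl2, Ccl7 and Cxcl10 were called higher in 4 comparisons each and lower in none, and Ccl5 was called higher in 4 and lower in 1. Comparisons within the overexpression and knockout cultures share libraries, and only 14 members were tested in every table, so these tallies are a description.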

How the data were processed

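RNA was sequenced from polyA libraries of brown adipocyte cultures and inguinal fat. The submitters' processing notes name fastp, STAR and featureCounts and the build mm39, without versions or roles. The authors deposited count tables per gene for 6 experiments, holding raw counts. Most low counts were even (71.1 to 81.9% of values of 1 to 19), a pattern that counting both mates of a fragment would give, and counting intervals may then be too narrow. Whether mates were counted singly is not given in the sources used here. The authors' deposited lists of called genes give log2 fold changes and p-values, and 10 of their per-sample columns were not used. The HFD table was assigned by exclusion, as the remaining table of Runx1 knockout against WT, since its own name carries no diet.

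Each table was fitted with all its groups in edgeR 4.0.16 (R 4.3.3, limma 3.58.1), with filterByExpr, TMM scaling and robust quasi-likelihood tests. The p-values of each comparison were adjusted by Benjamini-Hochberg across every gene tested in its table, and a gene was called at an adjusted p under 0.05. SE is the log2 fold change divided by the root of the F statistic, and CPM use TMM library sizes. The script was tested on simulated data. Alternatives were DESeq2 1.42.0, DESeq2 size factors, no count filter, the compared groups alone, a replicate block and each library left out. Fits without libraries holding muscle transcripts were added after seeing the data, as was 1 joint fit of the Runx1 and HFD iWAT tables. No 2 libraries agreed within sampling noise (smallest chi-square per degree of freedom 7.14). Same-numbered libraries deviated together in the double knockout comparison (correlations 0.307, 0.310 and 0.108), and not throughout any other comparison with 3 libraries a group. In the IDR comparison both correlations were 0.0338, and with 2 libraries a group they are equal by construction. The labels do not say that the numbers pair libraries, so the block was kept as an alternative only.

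Members and lists were chosen with earlier results of these data known. Per-library values are given for members called with an absolute log2 fold change of at least 1 and a mean of at least 1 CPM, and a short list of inflammatory, stromal and lymph node genes is given in each comparison, called or not. Promoter windows came from RefSeq, build GRCm38.p6, and matplotlib 3.10.9 under Python 3.11.15 drew the plots.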

Additional observations from a re-analysis of the deposited data

Results flagged for a closer look

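The Runx1 knockout effect differed between the HFD samples and the other inguinal fat for 12 of 44 members tested in 1 joint edgeR fit of both tables, against 4.4% of all genes tested. The difference (HFD effect minus the other, log2) was -7.44 for Ccr6, -6.43 for Cxcr5, -4.92 for Ccr8, -4.88 for Ccr4, -4.38 for Ccr7, -4.29 for Cxcl13, -3.91 for Ccr9, -3.61 for Ccl22, -3.40 for Cxcr6, -2.33 for Ccl5 and -2.13 for Cxcr3. It was 1.69 for Ccl9, which fell in Adipoq-cre:Runx1 KO fat and was not called in HFD Runx1 knockout fat. The edgeR adjusted p lay between 2.55e-05 and 0.0417. Diet label, experiment and B cell marker level differ together between the tables and cannot be told apart.

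Cxcr6 and Ccr4 also stood on opposite sides of their controls without overlap, at log2 -2.51 and -3.98 in HFD Runx1 knockout fat and 0.88 and 0.87 in Adipoq-cre:Runx1 KO fat. Of these 4 values only that of Cxcr6 in Adipoq-cre:Runx1 KO fat was called on its own. For Runx2, Ccl5 stood at log2 1.37 in knockout cultures and -1.19 in Adipoq-cre:Runx2 KO fat, and Cx3cl1 at 0.39 and -0.64, each with every knockout library on 1 side of its controls. None of these Ccl5 and Cx3cl1 fold changes was called on its own, and the difference between cultures and fat was not tested.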

How the results depend on the processing

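No named result changed sign as a call under any alternative, and 39 of 59 called values were called in every setting. DESeq2 called 6 members in Runx1 iWAT and 5 in Runx2 iWAT, against 3 and 0 by edgeR, and 13 in HFD against 9. With 1 library left out, the members called ranged between 11 and 13 for Runx1 overexpression, 15 and 16 for Runx2 overexpression, 8 and 14 for Runx2 against Runx1, 3 and 6 for the double knockout, 0 and 5 for Runx1 iWAT, 0 and 21 for Runx2 iWAT, and 5 and 9 for HFD. Under the replicate block all 5 members called in the double knockout were called again. The labels do not say that same-numbered libraries are paired. In the other comparisons the block gave 12, 16 and 11 calls for Runx1, Runx2 and Runx2 against Runx1 overexpression. It gave 1 and 0 for Runx1 and Runx2 knockout cultures, 2, 0 and 6 for Runx1, Runx2 and HFD iWAT and 1 for the IDR. Counts over all genes moved more. They were 59 by edgeR and 188 by DESeq2 for Runx1 knockout cultures, 25 and 165 for Runx2 knockout cultures, 1189 and 2265 for Runx1 iWAT, 0 and 955 for Runx2 iWAT, and 318 and 554 for HFD. The compared groups alone gave 195, 105 and 379 genes for the Runx1, Runx2 and double knockout cultures, the block 32, 12, 744 and 206 for Runx1 and Runx2 knockout cultures, Runx1 iWAT and HFD, and Runx1 iWAT without muscle-bearing libraries 415. With 1 library left out the ranges were 4 to 28, 0 to 9 and 1050 to 3584 in the knockout cultures, 99 to 1381, 0 to 6354 and 120 to 394 in Runx1, Runx2 and HFD iWAT, and 242 to 1214 for the IDR. The cause was not tested. With 3 libraries a group, members under about 1 CPM rested on few counts.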
